A study of Homo sapiens with 6 samples.

Results

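The cytosolic heat shock genes HSF1, HSPA1A, HSPA1B, HSPA8, HSPH1, DNAJB1, HSP90AA1, HSP90AB1, HSPB1 and BAG3 were followed in SK-N-AS, a human neuroblastoma cell line, with and without induced expression of MYCN. The 10 genes were chosen by name, as the heat shock transcription factor HSF1 and the best known cytosolic heat shock proteins and co-chaperones, from 60651 gene identifiers, and each matched 1 identifier. None of the 8 genes that could be tested passed the test in either direction after 5 days of MYCN induction. Of all 29086 genes tested, 3.4% passed, so 0 of 8 is near the share over all genes. HSPA1A and HSPA1B, the classical heat-inducible HSP70 genes, were at or near 0 read pairs in every library. For both, a low RNA level and a loss of read pairs that match several places cannot be told apart. The abundant chaperones HSP90AB1, HSP90AA1 and HSPA8 ranked 61st, 87th and 91st of all genes by their mean level per length.

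All 6 libraries came from SK-N-AS cells carrying a tetracycline repressor and a tetracycline-inducible MYCN transgene, kept as single clones, whose number is not stated, under 500 µg/ml G418 and 5 µg/ml blasticidin. The 3 control libraries carry ETOH in their titles and the 3 MYCN-induced libraries carry Tet, all at 120 h. The control cells therefore hold the same transgene and the same selection drugs, and any effect of tetracycline itself cannot be told apart from that of MYCN. Sequencing used ribosomal-RNA-depleted total RNA and paired reads of 150 bases. The study describes the libraries of a group as biologically independent experiments, and the labels say nothing more of their origin.

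Heat shock proteins are molecular chaperones, which bind unfolded proteins and either hold them, refold them or pass them on for degradation. HSP70 proteins work with J-domain proteins, which bring them substrates and stimulate their ATPase, and with nucleotide exchange factors such as HSPH1 and BAG3, which release ADP. HSP90 acts later, on nearly folded clients such as kinases and hormone receptors. When unfolded proteins accumulate, the transcription factor HSF1 forms trimers that bind heat shock elements, arrays of the 5-base unit NGAAN in alternating orientation, and raises transcription of the inducible members, above all HSPA1A and HSPA1B. HSPA8, HSP90AB1 and part of the HSP90AA1 output are made without stress. MYCN is a MYC-family transcription factor that binds E-boxes such as CACGTG.

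The heat shock elements of the member promoters are shown because they are the sites through which HSF1 is known to act. Promoter sequences were those of RefSeq on GRCh38.p14, each covering 250 bases before to 50 bases after a transcription start, and 9 of the 10 members had such a window. Both strands were searched for 2 alternating units, GAANNTTC or TTCNNGAA, and for 3, meaning GAANNTTC followed by NNGAA or TTCNNGAA followed by NNTTC. Each 3-unit match also holds the 2-unit letters. The 3-unit array was present in 3 of the 14 windows of members, 1 each of HSPA8, HSP90AA1 and HSP90AB1, against 0.49% of 35116 promoter windows. Each sequence below runs 5′ to 3′ on the strand of the gene, over 30 bases, with the array in capitals.
HSPA8, chr11:123062170-123062199, minus strand, bases -55 to -43 from the start: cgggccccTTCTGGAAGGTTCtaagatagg
HSPA8, chr11:123062345-123062374, minus strand, bases -230 to -218: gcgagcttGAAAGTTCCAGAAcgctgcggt
HSP90AA1, chr14:102087111-102087140, minus strand, bases -88 to -76: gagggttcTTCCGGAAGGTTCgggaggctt
HSP90AB1, chr6:44247770-44247799, plus strand, bases -165 to -153: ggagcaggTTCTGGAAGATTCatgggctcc
HSP90AB1, chr6:44247823-44247852, plus strand, bases -112 to -100: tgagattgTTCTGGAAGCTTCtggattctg

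The 2-unit letters were found in 13.5% of all windows and in 8 of the 14 member windows, belonging to 7 genes, which besides those 3 were HSPA1A, HSPA1B, DNAJB1 and HSPB1. The HSPA1A and HSPA1B sequences below are nearly the same, as these neighbouring genes encode nearly the same protein. DNAJB1 held 3 such matches, of which the farthest upstream is shown, and HSP90AA1 held 1 more beside its 3-unit array, not shown. A 2-unit match is common and is given as a description only.
HSPA1A, chr6:31815426-31815455, plus strand, bases -106 to -99: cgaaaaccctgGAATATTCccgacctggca
HSPA1B, chr6:31827622-31827651, plus strand, bases -105 to -98: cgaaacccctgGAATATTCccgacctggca
DNAJB1, chr19:14518456-14518485, minus strand, bases -77 to -70: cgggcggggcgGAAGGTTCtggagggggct
HSPB1, chr7:76302480-76302509, plus strand, bases -182 to -175: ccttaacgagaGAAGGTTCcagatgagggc
No 2-unit match lay in the windows of HSPH1 or BAG3. The E-box CACGTG was in 7.26% of all windows and in 0 of the 9 members with a window. These letters describe the windows alone, and no binding was measured.

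Library totals ran from 64500589 to 102249336 read pairs assigned to genes. MYCN, the induced gene, was at 30.3, 35.5 and 32.4 CPM (read pairs scaled by library size) in the control libraries and at 211, 221 and 199 CPM in the induced libraries, a log2 fold change of 2.68 (SE 0.08, edgeR adjusted p = 4.15e-05), so the labels held in all 6. The induced replicate 3 library stood apart: on the first principal component, with 49.4% of the variance, its score was 45.69, while induced replicates 1 and 2 scored 7.689 and 7.833 and controls scored from -27.59 to -15.04. Of 9 neuroblastoma markers, 8 had a mean of at least 1 CPM (all 9 summed to 875 to 1182 CPM in controls and 849 to 1044 CPM in induced libraries), and so had 5 of 6 mesenchymal markers, with CD44 at 0. Of the markers of other cell types, 1 of 5 blood, 0 of 4 endothelial and 2 of 4 epithelial markers reached that level, with CD3E at 0 and EPCAM and CDH1 below 1 CPM. Summed, the blood markers were at 2.01 to 2.13 CPM in controls and 1.42 to 2.3 CPM in induced libraries, the endothelial markers at 1.19 to 1.49 and 0.817 to 0.932 CPM, the epithelial markers at 173 to 207 and 154 to 179 CPM, and the mesenchymal markers at 436 to 456 and 493 to 559 CPM. In bulk RNA, fewer cells with a transcript and less of it per cell cannot be told apart.

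HSPA1A (chr6:31815543-31817946, a single exon) had a count of 0 in all 6 libraries. HSPA1B (chr6:31827738-31830254, also a single exon) had counts of 0.67, 0 and 0 in the control libraries and 0.33, 0.33 and 0 in the induced libraries. The source of these fractions was not tested. Neither gene nor their sum reached the minimum of 10 counts in 3 libraries, so no fold change was computed. A count of 0 allows up to 3 counts, which is 0.0293 to 0.0465 CPM in these libraries, and this limit covers counting error only.

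How many pairs of these genes could be counted depends on the reference and on the counting. The header of the counts names uniquely mapped pairs as the input, whereas the methods of the study name an option that also counts pairs with several places, and the genes are near copies of each other. Every stretch of 150 bases within each exon was looked up, on both strands, in the hg38 reference genome. On the 25 primary chromosomes, 30.6% of the 2255 HSPA1A windows and 33.9% of the 2368 HSPA1B windows were found at 1 place. With the 261 alternate contigs and 169 other contigs included, which repeat this region of chromosome 6 in several versions, 0% of the windows of either gene were found at 1 place, and the median window of HSPA1A had 10 places and that of HSPA1B had 9. Of the other 8 members, HSPA8 had 99.1% of its windows at 1 place in the whole reference and the other 7 had 100%. The study's data availability statement names an Ensembl file of alternate sequences for GRCh38, but whether these counts were aligned to it is not stated there.

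**Figure D1:**
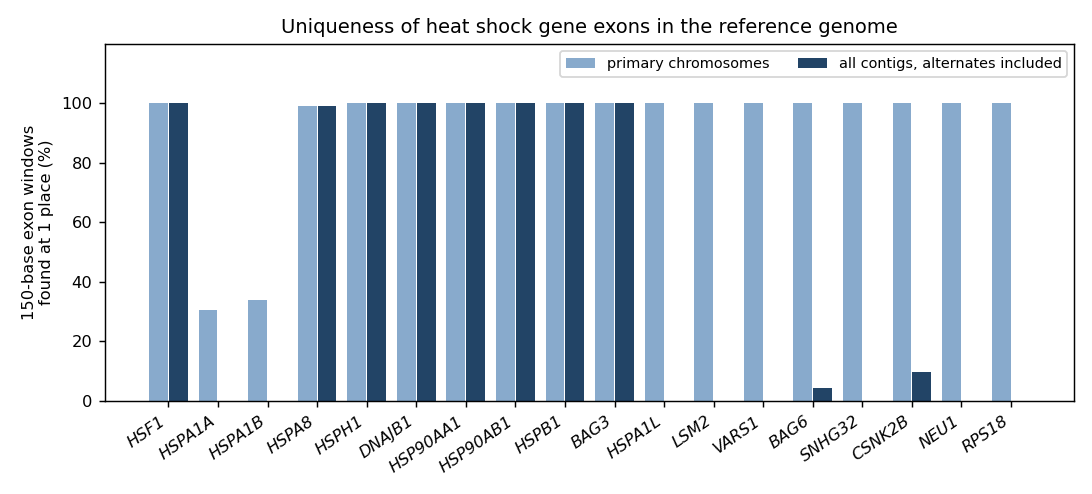
Share of 150-base windows within exons (percent, vertical axis) that occur at 1 place in hg38, for the 10 members and for 8 other genes of the chromosome 6 region, from HSPA1L to RPS18. Pale bars search the 25 primary chromosomes and dark bars search all contigs. HSPA1A and HSPA1B stand at 30.6% and 33.9% in the pale bars and at 0% in the dark bars, where the 8 other genes of the region lie between 0% and 9.79%.

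Other genes of this region, all with 100% of their windows at 1 place on the primary chromosomes, were counted in every library, although few or none of their windows were unique over all contigs. VARS1, a tRNA synthetase gene with 0% unique windows over all contigs, had counts of 7010, 6794 and 7815 in the control libraries and 5141, 7508 and 7619 in the induced libraries. LSM2 and NEU1, also at 0%, had counts of 632 to 872 and 399 to 629. BAG6, at 4.3%, had counts of 6691 to 13427. The part of repeated windows in the counts of this region was not tested.

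The remaining genes of the region had lower or more variable counts. HSPA1L, the adjacent testis-enriched HSP70 gene, at 0% unique windows over all contigs, had counts of 15, 10 and 15 in the control libraries and 6, 15 and 7 in the induced libraries. RPS18, a ribosomal protein gene also at 0%, had counts of 318, 229 and 44238 in the control libraries and 28349, 167 and 12368 in the induced libraries. It was thus high in the control replicate 3 library and in the induced replicates 1 and 3 and low in the others, across the groups. CSNK2B, at 9.79%, had counts of 15.9 to 37.4 in 5 libraries and 1304 in the induced replicate 3 library. SNHG32 had counts of 79.3 to 259.2, and ENSG00000285565, which shares 920 exon bases (36.6% of the exon length) with HSPA1B on the same strand, had counts of 69.3 to 251.2. For HSPA1A and HSPA1B, a low RNA level and a loss of pairs that match several places cannot be told apart in these counts, in either group.

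Among the members that could be measured, levels were compared per length as TPM, counts scaled by exon length and library total. HSP90AB1, the constitutive cytosolic HSP90, was at 832, 757 and 678 TPM in the control libraries and 808, 892 and 668 TPM in the induced libraries. HSP90AA1, the inducible HSP90 paralog, followed at 508, 469 and 432 TPM and at 527, 633 and 360 TPM. HSPA8, the constitutive HSP70, was at 463, 421 and 389 TPM and at 504, 511 and 433 TPM. The TPM ranges of HSP90AA1 and HSPA8 overlapped in both groups, so their order was not resolved. HSP90AB1 lay above both in each group by TPM. Its place above HSP90AA1 depends on exon length, 2980 bases against 5097 for HSP90AA1. By CPM, HSP90AA1 had the higher mean, 1457 against 1369 in controls and 1549 against 1428 after induction. In the induced replicate 3 library alone HSP90AA1 was lower, at 1292 against 1402 CPM. HSP90AB1, HSP90AA1 and HSPA8 ranked 61, 87 and 91 among all genes by mean TPM. Together they took 0.389% to 0.469% of all counted pairs in each library.

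By TPM, the other members formed a descending order without overlap between neighbours in either group, an order that depends on exon length. By mean CPM in controls, HSPH1 (219) lay above HSPB1 (104), DNAJB1 (69.6) lay above BAG3 (26.2), and HSF1 was at 26.6. HSPB1, the small heat shock protein HSP27, was at 71.1, 122 and 119 TPM in control libraries and 112, 115 and 98.9 TPM in induced libraries. HSPH1, the HSP110 exchange factor, was at 46.4, 43.6 and 38.8 TPM in controls and 50.8, 57.5 and 41.7 TPM after induction. BAG3, which links HSP70 to autophagy, came next at 15.9, 16.1 and 15.1 TPM and at 17.0, 20.2 and 18.9 TPM. Below it lay DNAJB1, the HSP40 partner of HSP70, at a mean of 13.9 ± 0.573 TPM (SD, n = 3) in controls and between 12.6 and 15.5 TPM after induction. HSF1 itself was the lowest of the 8, at 5.75 to 9.37 TPM in controls and 8.69 to 11.0 TPM after induction.

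**Figure D2:**
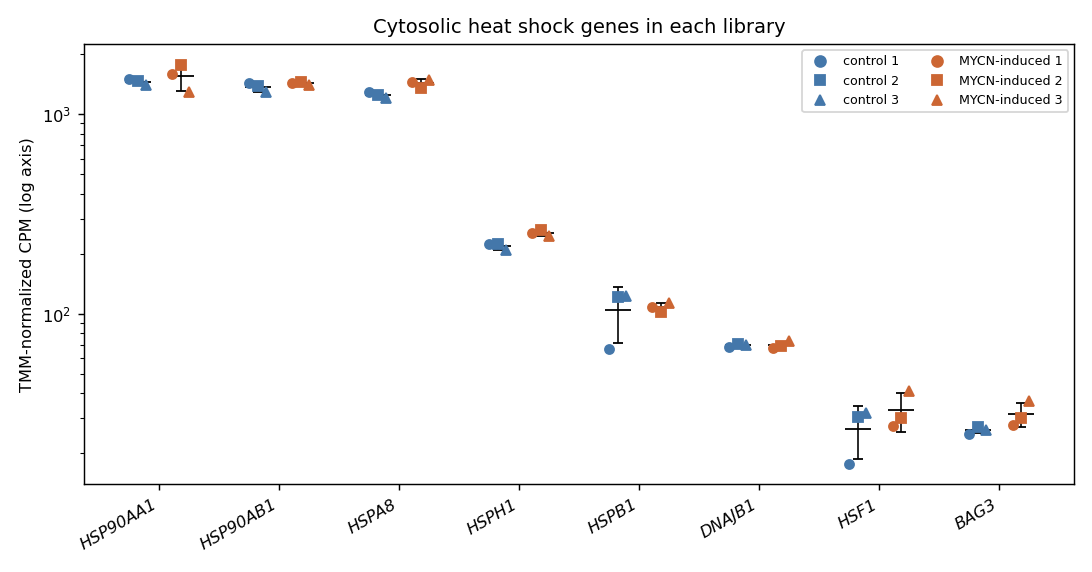
CPM after TMM normalization (log axis) of the 8 tested members in each library, by gene. Blue marks are control and orange marks MYCN-induced libraries, with the shape giving the replicate number, and black bars give the group mean and SD (n = 3). The groups are separate, with no shared values, for HSPA8, HSPH1 and BAG3 alone, and the control replicate 1 library lies low for HSPB1 and HSF1.

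The study's comparison asks what MYCN induction changes in these cells. Between groups, 0 of the 8 tested members passed an adjusted p of 0.05 in edgeR's quasi-likelihood test, where 3.4% of all 29086 genes tested passed (1.02% higher and 2.38% lower). At an unadjusted p under 0.05, 3 members were higher and 0 lower, against 8.13% and 10.6% of all genes. That count of 3 depended on the scaling and on single libraries, and so did the count over all genes, 2365 in the main fit. It was 1 with library size alone (1756 of all 29086 genes) and 0 with upper-quartile factors (1810). With at least 100 counts in every library it was 2 (1640 of 16341). It was 0 without control replicate 3 (1887 of 28438) and 1 without control replicate 2 (1354 of 28577). Without induced replicate 2 it was 2 (2306 of 28690). Without control replicate 1 it was 2 higher and 1 lower (1780 and 2392 of 28433). DESeq2 also called 0 members, where it called 7.23% of all genes. The CPM of the groups did not overlap for 3 members, all higher after induction, against 11.5% of all genes that were higher and 14.7% that were lower without overlap. The median log2 difference over the 8 was 0.14, beside 0.00 over all genes, and the fitted difference of DNAJB1 was near 0 and those of the other 7 above 0, as were 49.9% of all genes. The members share 6 libraries and are not independent of each other, so this count carries no test.

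HSF1 (chr8:144291591-144314720, plus strand) was at 17.6, 30.3 and 31.8 CPM in the control libraries and 27.4, 29.9 and 41.2 CPM in the induced libraries. The groups overlapped, and the control replicate 1 library was the lowest of all. The log2 difference was 0.31 (95% interval -0.24 to 0.86, adjusted p = 0.551), which spans folds of 0.84 to 1.81. Without that library it was 0.08.

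HSPA8 (chr11:123057489-123063230, minus strand) was at 1296, 1251 and 1205 CPM in controls and 1453, 1351 and 1479 CPM after induction. Every induced library lay above every control. The log2 difference was 0.19 (interval 0.03 to 0.35, unadjusted p = 0.0238 in edgeR, adjusted p = 0.188), a fold of 1.14. Its exons also hold the small nucleolar RNAs SNORD14C and SNORD14D, and 17 processed copies of the gene together had at most 0.68% of the HSPA8 count.

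HSPH1 (chr13:31134973-31162388, minus strand) was at 225, 224 and 208 CPM in controls and 254, 263 and 246 CPM after induction. The groups did not overlap, and this was the smallest unadjusted p of the members. The log2 difference was 0.22 (interval 0.07 to 0.36, unadjusted p = 0.0101 in edgeR, adjusted p = 0.122), a fold of 1.16. Without the induced replicate 3 library the difference was 0.25 and the adjusted p 0.0377, in a fit that called 8.12% of all genes (3.68% higher), so HSPH1 was the 1 member whose call depended on a single library. Over its 13 alternative fits the adjusted p ran from 0.0377 to 0.368.

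BAG3 (chr10:119651380-119677819, plus strand) was at 25.1, 27.0 and 26.3 CPM in controls and 27.7, 30.2 and 36.4 CPM after induction. The groups did not overlap, with the induced replicate 3 library highest. Its log2 difference was 0.27 (interval 0.01 to 0.52, unadjusted p = 0.0418 in edgeR, adjusted p = 0.245). Its differences from the control mean were 0.08 and 0.20 in the other induced libraries and 0.47 in that one. Without that library the log2 difference of BAG3 was 0.15.

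DNAJB1 (chr19:14514769-14560391, minus strand), an HSF1 target in most cell types, was at 68.2, 70.8 and 69.6 CPM in controls and 67.4, 69.1 and 72.7 CPM after induction. All 6 libraries lay within a narrow band, with coefficients of variation of 1.85% and 3.88%. The log2 difference was 0.00 (interval -0.14 to 0.15, adjusted p = 0.981), so a change of more than about 0.15 on the log2 scale in either direction lies outside the interval. DNAJB1 shares 525 exon bases (6.4% of its exon length) with TECR on the other strand, and the kit was a stranded one but the counting, per its header, was not, so pairs over both are divided.

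HSP90AA1 (chr14:102080742-102139699, minus strand) was at 1497, 1466 and 1408 CPM in controls and 1596, 1759 and 1292 CPM after induction. The induced libraries held both the highest and the lowest value, with a coefficient of variation of 15.3% against 3.09% in controls. Its log2 difference was 0.09 (interval -0.17 to 0.35, adjusted p = 0.732). Without the induced replicate 2 library it was -0.01.

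HSP90AB1 (chr6:44246166-44253888, plus strand) was at 1432, 1382 and 1291 CPM in controls and 1432, 1450 and 1402 CPM after induction. The groups overlapped, and the log2 difference was 0.06 (interval -0.09 to 0.22, adjusted p = 0.686). The TPM ratio of HSP90AA1 to HSP90AB1 was 0.61, 0.62 and 0.64 in control libraries and 0.65, 0.71 and 0.54 in induced libraries. The induced ratios lay on both sides of the controls. The log2 ratios differed by 0.01 between the groups (two-sided exact permutation test, p = 0.9, n = 3 in each group), where the smallest p this design allows is 0.1.

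HSPB1 (chr7:76302673-76304295, plus strand) was at 66.7, 122 and 123 CPM in controls and 108, 102 and 113 CPM after induction. The control spread, a coefficient of variation of 31.0%, came from the control replicate 1 library, and the induced libraries varied by 5.18%. The log2 difference was 0.05 (interval -0.44 to 0.54, adjusted p = 0.933), and it was -0.19 without that control library.

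The control replicate 1 library, where HSF1 and HSPB1 were low, was low at the median over GC-rich genes. Exon GC content was 65.4% for HSF1 and 63.6% for HSPB1, the highest of the tested members, and 38.1% for HSPH1, the lowest. Over the fifth of all tested genes with the highest GC (from 56.1%), the median difference from the control mean was -0.14 (log2) in the control replicate 1 library and 0.05 and 0.10 in the other controls. In that library HSF1 and HSPB1 were at -0.53 and -0.58 from their control means (log2). BAG3, the other tested member above 56.1% GC, has 56.5% and was at -0.06 there. The co-chaperones CDC37, STUB1 and HSPBP1, named after their values were seen, have GC contents of 61.4%, 65.6% and 63.5%. They were also lowest in that library among all 6, at -0.34, -0.4 and -0.41. The part of GC content in the single values was not tested. A fit with a GC correction per library gave log2 differences of 0.27 for HSF1 and 0.04 for HSPB1 and called 0 members.

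**Figure D3:**
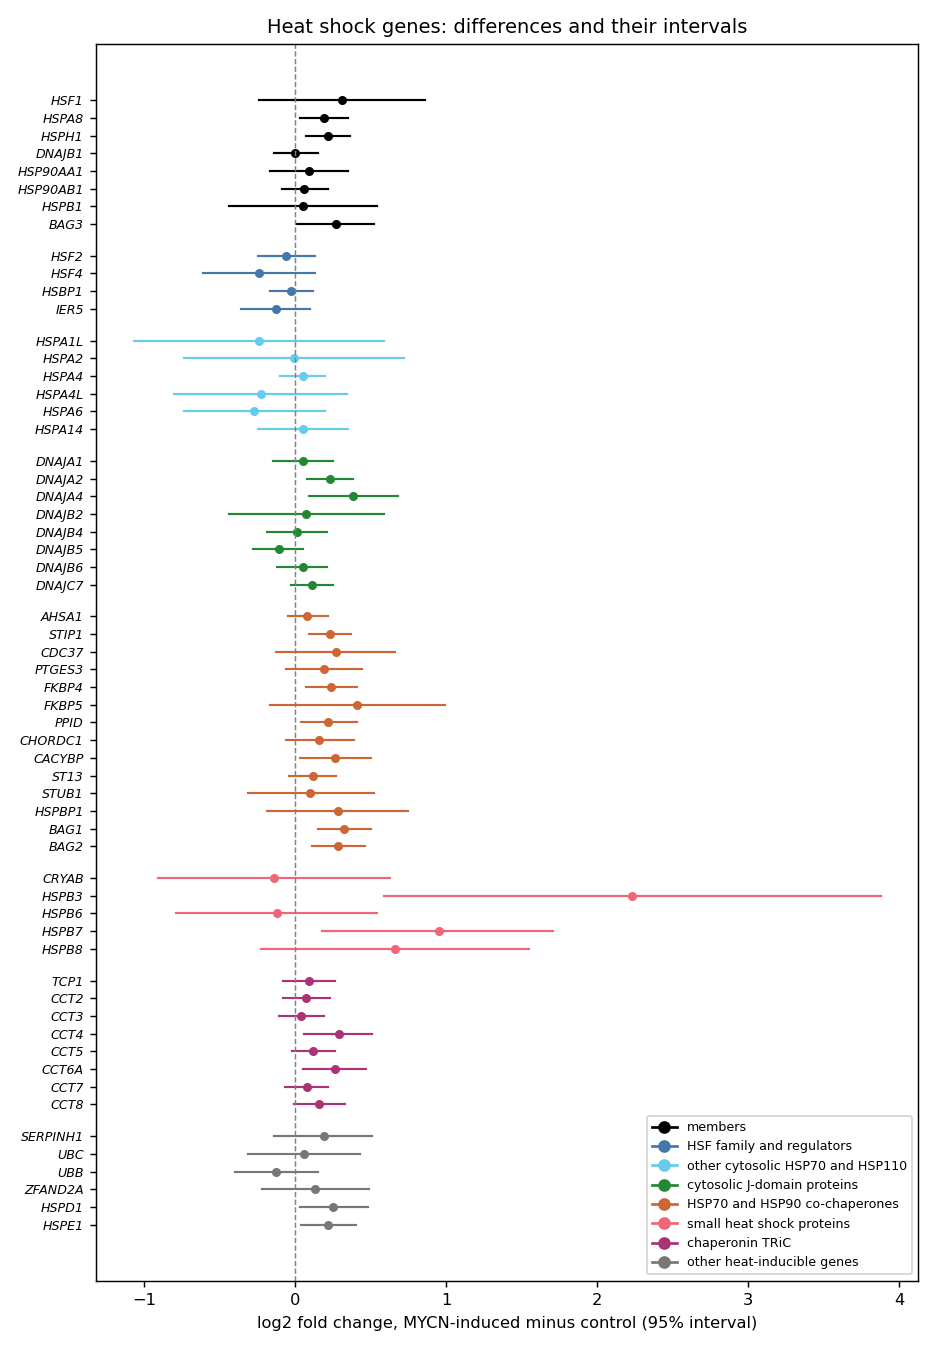
Fitted log2 fold changes, MYCN-induced minus control (horizontal axis), with 95% intervals, for the 8 tested members (black) and the 51 tested genes of 7 further lists (colours). None passed the adjusted threshold, the intervals of HSPA8, HSPH1 and BAG3 lie just above 0, and all 14 HSP70 and HSP90 co-chaperones lie to the right of 0.

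A wider set of 52 heat shock pathway genes in 7 lists was examined in the same fit. Of its 51 tested genes, 0 passed in either direction in edgeR, while 14 were higher and 0 lower at an unadjusted p under 0.05, against 8.13% and 10.6% of all genes. The 14 became 8 with library size alone and 9 with upper-quartile factors, where 1756 and 1810 of all 29086 genes were higher. Without control replicates 1 and 2 the count was 7 and 6, against 1780 of 28433 and 1354 of 28577 genes. Without induced replicate 3 it was 24 higher and 3 lower, against 3551 higher and 3797 lower of 28797. DESeq2 called 4 of the 51 higher, namely STIP1, BAG1, BAG2 and HSPB3, against 3.11% of all genes. The median log2 difference of the 51 was 0.11, 39 lay above 0 (49.9% of all genes), and 19 were higher without overlap between groups (11.5% of all genes). Without the induced replicate 3 library, 9 passed as higher, against 3.68% of all genes: STIP1, FKBP4, FKBP5, CACYBP, BAG1, BAG2, CCT8, HSPD1 and HSPE1.

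The co-chaperones of HSP70 and HSP90, which set the pace of the chaperone cycle and hand over clients, lay above 0 in all 14 cases, with a median log2 difference of 0.24 and 6 higher at an unadjusted p under 0.05 in edgeR, against 49.9% of all genes above 0 and 8.13% higher at that p. The 6 became 3 with library size alone or upper-quartile factors, where 1756 and 1810 of all 29086 genes were higher at that p. The count was 9 without induced replicate 3, against 3551 of 28797 genes. Without control replicate 1 or without induced replicate 3, 13 of 14 lay above 0, against 49.7% and 50.3% of all genes. BAG1, an HSP70 nucleotide exchange factor, was at 22.2, 24.4 and 24.1 CPM in controls and 29.5, 28.7 and 30.3 CPM after induction, with a log2 difference of 0.32 (adjusted p = 0.0656). STIP1, the HOP adaptor between HSP70 and HSP90, was at 208, 212 and 200 CPM in controls and 248, 246 and 235 CPM after induction, with a difference of 0.23 (adjusted p = 0.0847). In both genes every induced library lay above every control. The largest difference of the list was that of FKBP5, an HSP90-binding immunophilin, at 30.9, 30.7 and 29.6 CPM in controls and 45.3, 52.0 and 23.4 CPM after induction (0.41, adjusted p = 0.448). Its induced libraries lay on both sides of the controls. The smallest was that of AHSA1, an activator of the HSP90 ATPase, at 0.08.

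Subunits of the chaperonin TRiC, which folds actin and tubulin, lay above 0 in 8 of 8 cases, from 0.04 for CCT3 to 0.29 for CCT4, with a median of 0.11. Cytosolic J-domain proteins lay between -0.11 for DNAJB5 and 0.38 for DNAJA4, with a median of 0.06 and 7 of 8 above 0. Other heat-inducible genes ran from -0.13 for UBB, a polyubiquitin gene, to 0.25 for HSPD1, the mitochondrial HSP60, with a median of 0.16, which was 0.00 without induced replicate 3.

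The list of HSF2, HSF4 and the regulators HSBP1 and IER5, and that of the other HSP70 genes, had medians below 0 over all 6 libraries. HSF1, counted with the members and not in these lists, was at 0.31 (edgeR adjusted p = 0.551). In the first list, 0 of 4 genes lay above 0, from HSF4 at -0.24 to HSBP1 at -0.03. None of the 4 had an unadjusted p under 0.05 in edgeR. The other cytosolic HSP70 and HSP110 genes had 2 of 6 above 0 and a median of -0.12, from -0.27 for HSPA6 to 0.05 for HSPA14. That direction turned without induced replicate 3, with a median of 0.07 and 4 of 6 above 0, and with at least 100 counts in every library, where 3 genes were left with a median of 0.04. HSPA6, a strictly heat-inducible HSP70 gene, was at 1.66, 1.65 and 1.74 CPM in controls and 1.11, 1.21 and 1.85 CPM after induction (adjusted p = 0.54). The induced replicate 3 library was its highest and the other induced libraries its lowest. Whether any 2 of these lists differ from each other was not tested.

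Of 6 small heat shock protein genes besides HSPB1, 5 could be tested. HSPB3, a muscle-type member, was at 0.315, 0.35 and 0.227 CPM in controls and 0.77, 0.397 and 3.01 CPM after induction, with a log2 difference of 2.23 (interval 0.59 to 3.88, adjusted p = 0.143). Most of that difference lay in the induced replicate 3 library, with 255 counts against 50 and 37 in the other induced libraries. CRYAB, the alpha-B crystallin, had the largest fall in the list, at -0.14 (adjusted p = 0.87).

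**Figure D4:**
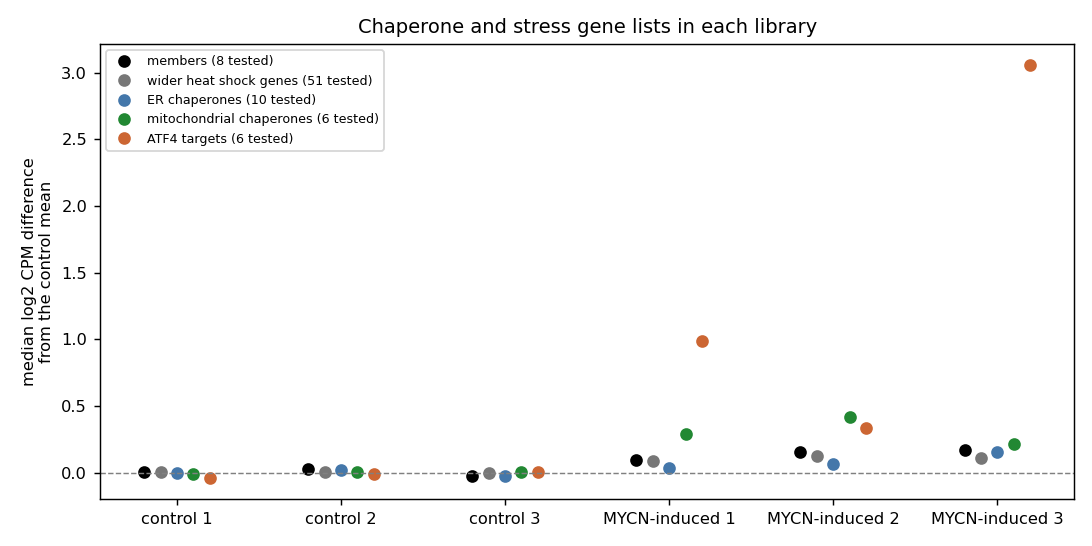
Median log2 CPM difference from the control mean (vertical axis) in each library, for the members, the wider heat shock genes, ER chaperones, mitochondrial chaperones and ATF4 targets. The members stay between -0.02 and 0.17 and the wider genes between 0.00 and 0.13, while the ATF4 targets reach 3.06 in the induced replicate 3 library.

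Chaperones of other compartments and another stress pathway were set beside the members. The median of the 8 members was 0.01, 0.03 and -0.02 (log2 difference from the control mean) in the controls and 0.10, 0.16 and 0.17 in the induced libraries. ER chaperones, which answer to the unfolded protein response of the endoplasmic reticulum, had 0 of 10 genes past the threshold in edgeR. Their median log2 fold change was 0.10. At an unadjusted p under 0.05 in edgeR, 2 of them were higher and 0 lower, against 8.13% and 10.6% of all genes. DESeq2 called 1 of them higher, against 3.11% of all genes. Mitochondrial chaperones had 2 of 6 genes that rose, against 1.02% of all genes, HSPA9, the mitochondrial HSP70, by 0.51 (adjusted p = 0.0173) and TRAP1, the mitochondrial HSP90, by 0.38 (adjusted p = 0.0303). The count of 2 was 0 without control replicate 1, 2 or 3, 1 without induced replicate 1 or 2 or with library size alone, 3 with DESeq2 or the GC correction and 4 without induced replicate 3. Over all genes, 298 of 29086 were called higher in the main fit. Without control replicates 1, 2 and 3 these were 46 of 28433, 18 of 28577 and 30 of 28438. Without induced replicates 1 and 2 they were 73 of 28929 and 169 of 28690, and with library size alone 239 of 29086. Over all genes, DESeq2 called 3.11% higher, the GC correction called 587 of 29086 higher and the fit without induced replicate 3 called 3.68% higher. HSPD1 and HSPE1 belong to the mitochondrial list as well as to the wider heat shock list.

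Targets of ATF4, the factor of the integrated stress response, stood at a median of 0.99, 0.34 and 3.06 in the induced libraries, in the order of replicates 1, 2 and 3. None of the 6 tested passed in edgeR, where 5 were higher at an unadjusted p under 0.05, against 8.13% of all genes. Their median log2 fold change was 2.14. Without induced replicate 3 it was 0.75 and 3 passed as higher, against 3.68% of all genes. DESeq2 also called 3 higher, against 3.11% of all genes. With upper-quartile factors, without induced replicate 2 or, of 7 tested, with no count filter, 2 passed as higher. Over all genes these fits called 267 of 29086, 169 of 28690 and 470 of 45073 higher. The induced replicate 3 library was thus highest both for these genes and for BAG3, HSPB3 and HSF1, and lowest of the induced libraries for HSP90AA1 and FKBP5. The part of that stress pathway in the member values was not tested. For the members, leaving that library out gave a median of 0.13, beside 0.14 with it, and 7 of 8 above 0.

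The genes whose profile over the 6 libraries was most like the mean profile of the tested members were sought among 10150 other genes with a mean of at least 10 CPM. The mean member profile was -0.13, 0.08 and 0.04 in the controls and 0.11, 0.15 and 0.21 in the induced libraries (log2 difference from the control mean). The nearest were POLD2, NPHP4, CYTH1, INPP5A and HIKESHI, with root mean square differences of 0.023, 0.027, 0.029, 0.030 and 0.032. None of the 5 passed the test, with adjusted p from 0.292 to 0.454. The mean profile includes the low control replicate 1 values of HSF1 and HSPB1.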

How the data were processed

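Total RNA of 3 control and 3 MYCN-induced SK-N-AS libraries was measured. The authors deposited estimated counts, read pairs per gene over exons, with pairs on several genes divided in fractions; 31.9% to 33.4% of values above 0 were not whole. Per the file headers, featureCounts 1.6.4 was run without a strand option on uniquely mapped pairs. The labels name featureCounts 1.5.1, STAR 2.7.1a and GRCh38, and the methods of the study name a strand option and the counting of multi-mapped pairs. The 92 listed spike-in sequences had 0 counts. GENCODE v44 names matched 99.65% of identifiers.

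Counts were rounded, and the 29086 genes that reached 10 counts in 3 or more libraries were fitted with edgeR 4.0.16 (TMM, quasi-likelihood, no replicate block; R 4.3.3) and adjusted by Benjamini-Hochberg over all of them at 0.05. The SE is the log2 fold change over the root of F, and intervals cover 95%. Profiles used log2(CPM + 0.5). TPM was computed from counts and exon lengths, so it rests on gene models, not on isoforms. Unique pairs cannot count exact repeats. Replicates of a group differed beyond sampling noise (chi-square per gene 12.1 to 145.6).

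The members and lists were chosen with earlier results of these data known. Genes named were all members, wider-list genes past the threshold, the largest rise and fall of each list, MYCN, and the 5 nearest profiles. BAG1, STIP1, HSPA9, TRAP1, CDC37, STUB1, HSPBP1, the chromosome 6 neighbours, and the wider genes called in an alternative fit, were named after their values were seen. Alternatives were library size alone, upper-quartile factors, DESeq2 1.42.0, no filter, at least 100 counts in every library, a replicate block, each library left out and, added after seeing the data, a GC correction (lowess span 0.3).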

Additional observations from a re-analysis of the deposited data

How the results depend on the processing

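Of 13 alternative fits, 12 called 0 members higher and all 13 called 0 lower. Leaving out each library gave 0 to 1 members higher and 0 to 9 wider heat shock genes higher. The 1 and the 9 came without the induced replicate 3 library, where 8.12% of all genes passed against 3.4% with it; the cause was not tested. DESeq2 called 4 wider genes higher, against 3.11% of all genes. The GC correction, chosen after seeing the data, called 2 higher (BAG1 and BAG2), against 587 of all 29086 genes. No alternative called a wider gene lower, and for these counts too the cause was not tested. MYCN stayed between 2.63 and 2.74.

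The DNAJB1 difference, 0.00, was -0.03 with library size alone, -0.03 with upper-quartile factors and -0.01 with at least 100 counts in every library, and ran from -0.02 to 0.04 with 1 library left out. Library size alone and upper-quartile factors moved the median of all genes from 0.00 to -0.03. With 1 library left out, HSP90AA1 ran from -0.01 to 0.21, HSPB1 from -0.19 to 0.19, HSF1 from 0.08 to 0.45, BAG3 from 0.15 to 0.36 and the log2 ratio of HSP90AA1 to HSP90AB1 from -0.07 to 0.13. The number of genes called overall was 990 with edgeR, 2103 with DESeq2, 1486 with the GC correction and 90 to 2339 with 1 library left out. With the replicate number as a block, 265 genes were higher and 575 lower over all genes and 0 members were called, with HSF1 at 0.33 (adjusted p = 0.239, and 0.239 to 0.892 over its alternatives). The sources used here do not say that a number marks a shared culture or day, and deviations of same-numbered libraries correlated at 0.299, 0.006 and 0.09, against at most 0.1 between differently numbered ones. The summed fit of HSPA1A and HSPA1B and their ratio to HSPA8 were not run, because too few pairs were counted. Each of the other 8 members had 1778 counts or more in every library.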
